A study of Homo sapiens with 6 samples.

Results

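The genes described here are the 10 core enzymes that remove superoxide and peroxides: the superoxide dismutases SOD1 and SOD2, catalase (CAT), the glutathione peroxidase GPX1 and the peroxiredoxins PRDX1 to PRDX6. They were taken by gene name from a deposited table of 60623 genes, where 11 rows carry the 10 names because SOD2 has a second row. The RNA came from LX2, a human cell line derived from hepatic stellate cells, which lay down scar matrix in the injured liver. All levels given are of RNA, and the amount and activity of the enzymes were not measured. Cells of 3 libraries received an siRNA against SHMT2 (siSHMT2, labelled SHMT2 knockdown) and cells of the other 3 a control siRNA (siNC, labelled WT). Both were collected 36 h after transfection, and the medium held 2% serum. SHMT2 encodes the mitochondrial serine hydroxymethyltransferase. All 6 libraries come from 1 cell line, and the labels leave it unsaid whether replicates were separate cultures. The p-values therefore reflect the spread among these libraries alone, and that spread may be technical.

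Superoxide leaks from the respiratory chain and from oxidases, and superoxide dismutases turn it into hydrogen peroxide. SOD1, the copper and zinc enzyme, works mainly in the cytosol, whereas SOD2, the manganese enzyme, works in the mitochondrial matrix. Peroxide is then removed by catalase in peroxisomes, by the selenoenzyme GPX1 at the expense of glutathione, and by peroxiredoxins, most of which are recharged by thioredoxin. In the liver, oxidants are among the signals that activate stellate cells.

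Each library held 14722344 to 15669139 reads, recovered from the deposited FPKM (fragments divided by gene length and by a library total). SHMT2 was at 2.25, 2.10 and 2.42 FPKM in the siSHMT2 libraries, against 40.8, 56.3 and 45.1 FPKM in the siNC libraries. The mean in siSHMT2 was thus 4.77% of that in siNC (exact two-sided permutation test, p = 0.1, the smallest that 3 against 3 allows). Of 10 stellate cell markers, 6 had a mean FPKM of at least 1. All 10 summed to 1246 to 1458 FPKM in siSHMT2 and 1643 to 2535 FPKM in siNC, most of it TIMP1 and VIM. COL1A1 (190.4 to 231 FPKM in siSHMT2, 199 to 252 FPKM in siNC) and COL1A2 (7.53 to 8.26 FPKM in siSHMT2, 5.75 to 8.34 FPKM in siNC) overlapped between groups. ACTA2 lay between 0.510 and 0.985 FPKM in siSHMT2 and between 0.209 and 0.555 FPKM in siNC, and LUM, DCN and DES were near 0. The part of this marker difference in the results below was not tested. Hepatocyte and endothelial markers had 0 of 6 and 0 of 6 genes at a mean of 1, and leukocyte and cholangiocyte markers 1 of 6 and 2 of 5. The second principal component (24.3% of the variance) placed siNC replicates 1 and 2 at its opposite ends, at -23.6 and 21.2.

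Of the 10 enzymes, 3 differed in RNA level between siSHMT2 and siNC: SOD2 was lower, and PRDX4 and CAT were higher. With siSHMT2 and siNC as the only groups, loss of SHMT2 and other effects of the siRNA cannot be told apart. The other 7 (SOD1, GPX1 and the remaining 5 peroxiredoxins) were not called, with estimates between -0.25 and 0.12 on the log2(FPKM + 1) scale and 95% intervals lying within -0.76 to 0.63. A gene was called at a limma adjusted p under 0.05, with Benjamini-Hochberg adjustment over all 10865 genes that had a mean FPKM of at least 1. All 10 enzymes passed that filter on their main rows. CAT was just under the threshold (limma adjusted p = 0.0473), and its call held in 5 of the 16 alternative fits given below. By the same rule 15.9% of all tested genes were called, 6.07% higher and 9.85% lower, beside the 2 higher and 1 lower of these 10. The groups did not overlap for the 3 called enzymes and overlapped for the other 7, where 36.4% of all tested genes did not overlap. The median difference was -0.07 over the 10 enzymes and 0.02 over all tested genes.

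**Figure D1:**
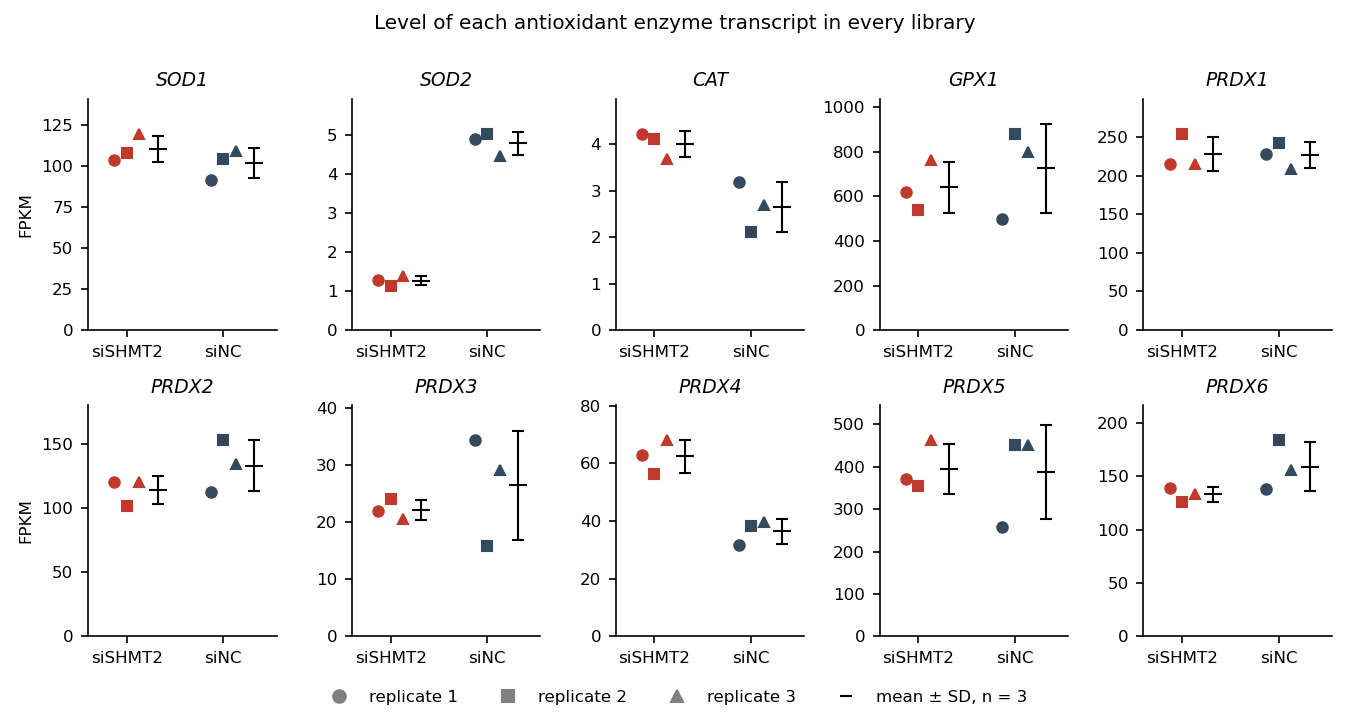
FPKM of each enzyme (vertical axis, linear, from 0) in the 3 siSHMT2 libraries and the 3 siNC libraries, with each library as a point shaped by its replicate number and the mean ± SD beside it. The siSHMT2 points lie below all siNC points for SOD2 and above all of them for CAT and PRDX4, and the groups overlap in the other 7 panels.

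SOD2 was the enzyme with the largest difference between the groups. Its main row (ENSG00000112096, chromosome 6, 159669069 to 159745186, minus strand, protein-coding) read 1.28, 1.14 and 1.38 FPKM in the siSHMT2 libraries, against 4.90, 5.02 and 4.45 FPKM in the siNC libraries. Every siSHMT2 library was low and every siNC library high, with a wide gap between them. These values rest on 336, 311 and 359 reads in siSHMT2 and on 1408, 1195 and 1152 reads in siNC. The mean was 1.27 ± 0.120 FPKM in siSHMT2 and 4.79 ± 0.298 FPKM in siNC (SD, n = 3 each), so the siSHMT2 mean was 0.264 times the siNC mean.

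On the log2(FPKM + 1) scale SOD2 fell by 1.35 (SE 0.0995, 95% interval -1.58 to -1.12, limma adjusted p = 0.000263). Among the 10865 tested genes it had the 40th smallest p and the 89th lowest estimate. The pseudocount of 1 shrinks the change of a gene at this level. With a pseudocount of 0.01 the limma estimate was -1.91. SOD2 was called lower in all 16 alternatives in which it was tested, with limma adjusted p between 1.37e-05 and 0.00394. At a minimum mean of 5 FPKM it was not tested. In bulk RNA, fewer cells that express a gene and less of its RNA per cell cannot be told apart. The second row named SOD2 (ENSG00000285441, chromosome 6, 159679119 to 159762529) held 1, 0 and 2 reads in siSHMT2 and 0 reads in each siNC library. The main row thus held almost all reads assigned to the name. Both rows lie on the minus strand and their coordinates overlap, and how reads in the shared stretch were counted is not given here. Such reads may be missing from both, so whether the main row stands for all SOD2 RNA was not tested.

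The SOD2 row has an unusual length. The table divides its reads by 16431 bases, which is 19.0 times the median length of its 10 coding transcripts in GENCODE 29 (866 bases, range 507 to 14266). The same ratio lay between 1.16 and 2.30 for the other 9 enzymes. The longest of them, SOD2-210, has a 3′ UTR of 13436 bases. Which SOD2 transcripts the reads came from was not analysed here. The ratio of group means, 0.264, is free of that length, since the same value divides all 6 libraries. The estimate on the log2(FPKM + 1) scale, the minimum mean and the level of SOD2 beside the other enzymes are not.

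That long 3′ UTR is shown in part because it holds words that earlier work on these data singled out. The 2 words, GACTTTA and ACTTTAA, were picked on these same fold changes as the ones that went most strongly with lower values, so their presence in SOD2 describes that choice and tests nothing. They overlap each other in all but their outer bases. Only the transcript strand was searched. The 3′ UTR of SOD2-210 holds 5 sites, and 2 of them hold both words. Of these, 3 are printed as 30 bases each, including both that hold the pair of words, 5′ to 3′, with the word or words in capitals, from GENCODE 29 transcripts (GRCh38, minus strand of chromosome 6).
SOD2 site 1: gtggaaaaggaGACTTTAAgattgtttagg
SOD2 site 2: gcatgtcaaaaACTTTAAaaatcctataat
SOD2 site 3: gagataaaataGACTTTAAgtcaaaaactg
Site 1 lies at chr6:159679926-159679955 and its word starts at base 2549 of the 3′ UTR. Site 2 lies at chr6:159679068-159679097, at base 3407, and is also in the shorter transcript SOD2-203. Site 3 lies at chr6:159669726-159669755, at base 12749.

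Of the 6 transcripts of the main SOD2 row with an annotated 3′ UTR, 2 hold either word (SOD2-210 and SOD2-203) and 4 hold neither, including the 1545 bases of SOD2-206. None of the 21 such transcripts of the other 9 enzymes holds either word, CAT and PRDX4 included, and their longest 3′ UTRs per gene measure 120 to 944 bases. Long 3′ UTRs hold these words often. Of 9388 tested genes with a 3′ UTR of at least 50 bases, 24.6% hold either word in the longest one, against a median length of 1325 bases. The share is 66.7% of the 655 genes with at least 5000 bases and 88.0% of the 75 genes with at least 10000 bases, the class of SOD2. Of those 75 genes, 14.7% were called lower, with a median difference of -0.05, and of all 9388 genes 10.2% were called lower.

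SOD1, the cytosolic dismutase (ENSG00000142168, chromosome 21, 31659622 to 31668931, plus strand), was abundant and similar in both groups. It measured 104, 107 and 119 FPKM in the siSHMT2 libraries, against 91.4, 104 and 109 FPKM in the siNC libraries. The groups overlapped, with siNC replicate 1 lowest and siSHMT2 replicate 3 highest. The limma estimate was 0.12 (SE 0.125, 95% interval -0.17 to 0.41, adjusted p = 0.573), from 3046 to 3803 reads per library.

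CAT, the peroxisomal enzyme that splits hydrogen peroxide into water and oxygen without a reductant, was a low-level transcript. Its row (ENSG00000121691, chromosome 11, 34438934 to 34472060, plus strand) measured 4.22, 4.11 and 3.69 FPKM in the siSHMT2 libraries, against 3.18, 2.10 and 2.70 FPKM in the siNC libraries. All 3 siSHMT2 libraries lay above all 3 siNC libraries, and the gap between siSHMT2 replicate 3 and siNC replicate 1 was small. The mean was 4.01 ± 0.277 FPKM in siSHMT2 and 2.66 ± 0.539 FPKM in siNC (SD, n = 3 each), a ratio of 1.51. CAT rose by 0.46 on the log2(FPKM + 1) scale (SE 0.128, 95% interval 0.16 to 0.76, limma adjusted p = 0.0473), just under the threshold. The call rests on 242, 244 and 209 reads in siSHMT2 and on 199, 109 and 152 reads in siNC.

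The direction for CAT held in all 16 alternatives in which it was tested, between 0.35 and 0.68, but the call held in 5 of them. Limma adjusted p was 0.103 after rescaling to TPM, 0.0706 with FPKM from the read sums and 0.0602 with voom on recovered reads. Of the 6 fits that each left out 1 library, only the fit without siNC replicate 1 called CAT (limma adjusted p = 0.0226), and the other 5 gave 0.0674 without siNC replicate 2, 0.0955 without siNC replicate 3, and 0.169, 0.145 and 0.0994 without siSHMT2 replicates 1, 2 and 3.

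GPX1 had the most abundant transcript of the 10 by FPKM. Its row (ENSG00000233276, chromosome 3, 49357176 to 49358358, minus strand) carries the biotype polymorphic pseudogene in the table, although GPX1 makes a working selenoenzyme that reduces peroxides with glutathione. It measured 618, 538 and 765 FPKM in the siSHMT2 libraries, against 500.2, 879 and 800.4 FPKM in the siNC libraries. The lowest and the highest value both belonged to siNC, and the siSHMT2 values lay between them. The limma estimate was -0.16 (SE 0.247, 95% interval -0.73 to 0.42, adjusted p = 0.718). It was -0.40 without siNC replicate 1 (limma adjusted p = 0.164) and 0.00220 without siNC replicate 2 (limma adjusted p = 0.997). Leaving out siNC replicate 3, or siSHMT2 replicate 2 or 3, gave -0.07, -0.04 and -0.29, so its size depended on which libraries were kept.

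PRDX4, the peroxiredoxin of the endoplasmic reticulum, where it couples peroxide to the folding of secreted proteins, was the only peroxiredoxin of the 6 that was called. Its row (ENSG00000123131, chromosome X, 23664262 to 23686397, plus strand) measured 63.0, 56.4 and 67.9 FPKM in the siSHMT2 libraries, against 31.6, 38.2 and 39.7 FPKM in the siNC libraries. The lowest siSHMT2 library stood well above the highest siNC library. The mean was 62.5 ± 5.74 FPKM in siSHMT2 and 36.5 ± 4.31 FPKM in siNC (SD, n = 3 each), a ratio of 1.71, from 1025 to 1991 reads per library. PRDX4 rose by 0.76 on the log2(FPKM + 1) scale (SE 0.131, 95% interval 0.46 to 1.06, limma adjusted p = 0.00774).

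Among all tested genes PRDX4 had the 192nd highest estimate. It was called higher in 17 of 17 alternatives, with estimates between 0.66 and 0.87 and limma adjusted p between 0.000557 and 0.0476. The scaling alternatives gave 0.87 after TPM, 0.84 with FPKM from the read sums and 0.86 with voom.

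**Figure D2:**
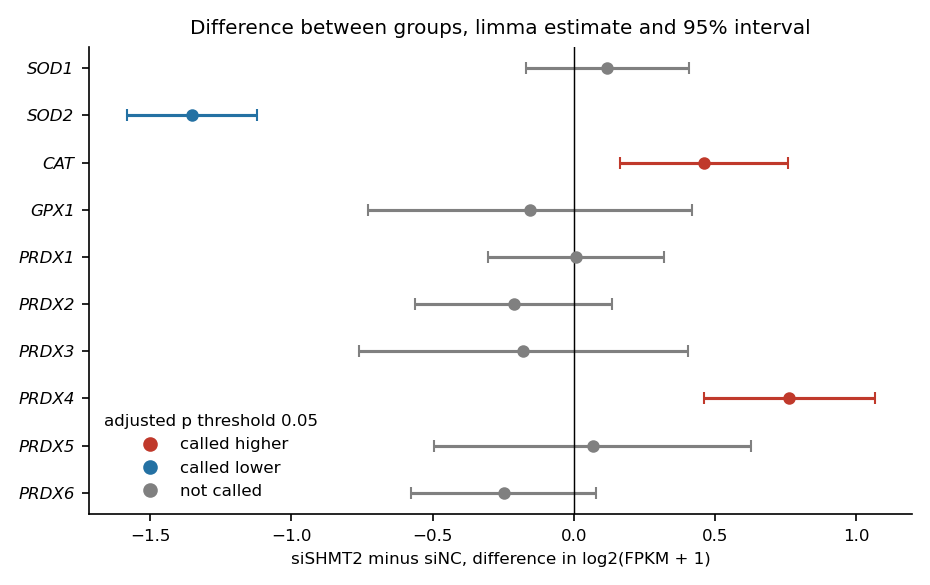
Limma estimate of siSHMT2 minus siNC on the log2(FPKM + 1) scale (horizontal axis) with its 95% interval for each of the 10 enzymes, coloured by the call at an adjusted p under 0.05. SOD2 lies at -1.35, PRDX4 at 0.76 and CAT at 0.46, and the intervals of the other 7 cross 0.

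PRDX1 and PRDX2, the typical cytosolic peroxiredoxins, were not called. PRDX1 (ENSG00000117450, chromosome 1, 45511036 to 45523047, minus strand) measured 216, 254 and 215 FPKM in the siSHMT2 libraries, against 228, 243 and 209 FPKM in the siNC libraries. The highest library and the next-to-lowest were both siSHMT2, and the ranges overlapped almost fully. The limma estimate for PRDX1 was 0.01 (SE 0.135, 95% interval -0.31 to 0.32, adjusted p = 0.981). PRDX2 (ENSG00000167815, chromosome 19, 12796820 to 12801800, minus strand) measured 121, 102 and 121 FPKM in siSHMT2, against 113, 153 and 134 FPKM in siNC. Here siNC replicates 2 and 3 were above all siSHMT2 libraries and siNC replicate 1 was among them. The limma estimate for PRDX2 was -0.21 (SE 0.151, 95% interval -0.56 to 0.14, adjusted p = 0.393).

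PRDX3 is the peroxiredoxin of the mitochondrial matrix, the compartment of both SHMT2 and SOD2. Its row (ENSG00000165672, chromosome 10, 119167720 to 119178812, minus strand) measured 22.0, 24.0 and 20.6 FPKM in the siSHMT2 libraries, against 34.3, 15.9 and 29.2 FPKM in the siNC libraries. The siSHMT2 libraries lay close together inside the wide siNC range, which had a coefficient of variation of 36.0%, against 7.81% in siSHMT2. The limma estimate was -0.18 (SE 0.252, 95% interval -0.76 to 0.41, adjusted p = 0.682). Without siNC replicate 2, PRDX3 was called lower at -0.50 (limma adjusted p = 0.0324). Without siNC replicate 1 the limma estimate was 0.04 (adjusted p = 0.928). The reads behind these values ran from 778 to 2030 per library.

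PRDX5, found in mitochondria, peroxisomes and the cytosol, had the next most abundant transcript after GPX1 by FPKM. Its row (ENSG00000126432, chromosome 11, 64318121 to 64321811, plus strand) measured 370.0, 353 and 462 FPKM in the siSHMT2 libraries, against 258, 451 and 450.0 FPKM in the siNC libraries. As for GPX1, siNC replicate 1 was the lowest of the 6, and the groups overlapped. The limma estimate was 0.07 (SE 0.242, 95% interval -0.49 to 0.63, adjusted p = 0.884), and it lay between -0.20 and 0.20 when each library was left out in turn. The library total behind the FPKM of siNC replicate 1 was 1.12 times its read sum and that of siNC replicate 2 was 0.957 times. With FPKM from the read sums PRDX5 stood at 0.14 (limma adjusted p = 0.644) and GPX1 at -0.08 (limma adjusted p = 0.815).

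PRDX6, which reduces peroxidised phospholipids with glutathione, measured 139.7, 126 and 134 FPKM in the siSHMT2 libraries, against 138, 184 and 156 FPKM in the siNC libraries (ENSG00000117592, chromosome 1, 173477330 to 173488815, plus strand). The groups overlapped through siNC replicate 1, which lay inside the siSHMT2 range, and the other siNC libraries were above it. The limma estimate was -0.25 (SE 0.141, 95% interval -0.58 to 0.08, adjusted p = 0.289), the lowest of the 7 enzymes that were not called. For the 7, the intervals show that these libraries leave room for moderate differences in both directions, the widest for PRDX3, GPX1 and PRDX5.

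**Figure D3:**
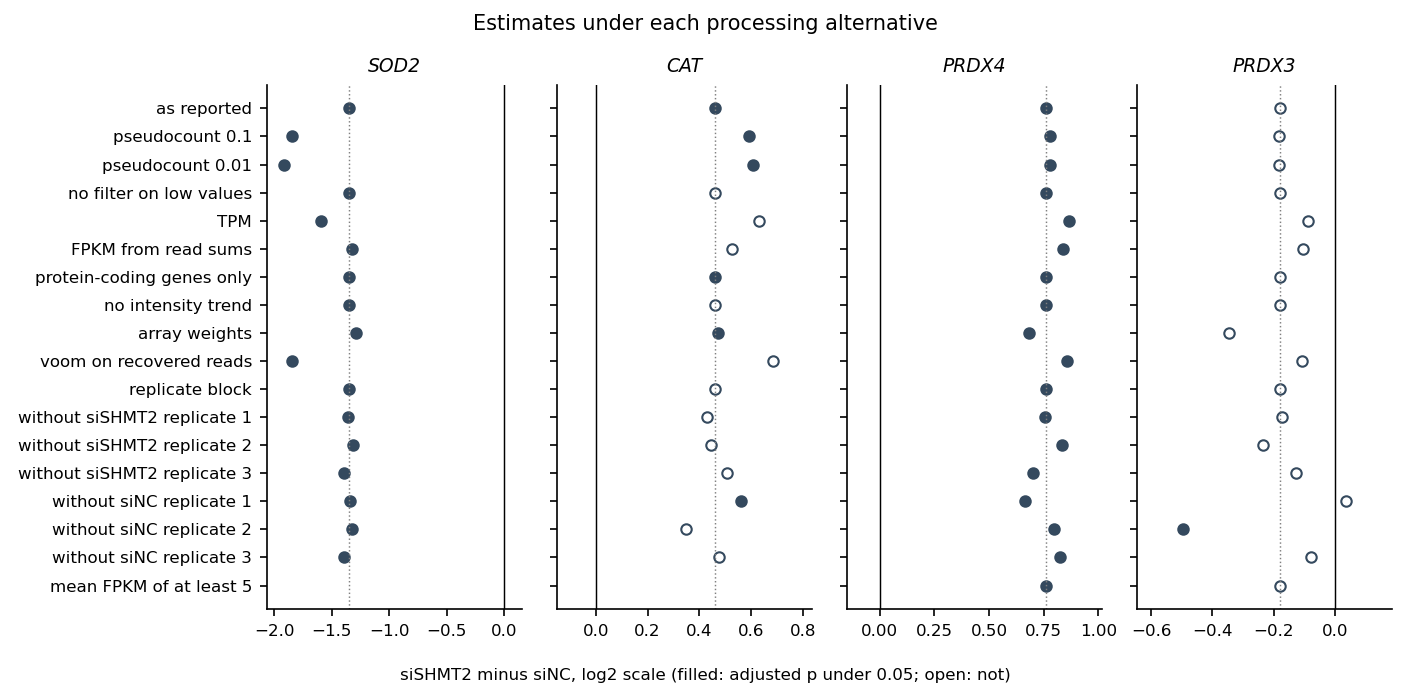
Estimate of siSHMT2 minus siNC (horizontal axis, log2 scale) for SOD2, CAT, PRDX4 and PRDX3 as reported (top line) and under each alternative (other lines), with filled points where the adjusted p was under 0.05. SOD2 and PRDX4 are filled wherever tested, CAT in 5 of 16 alternatives, and PRDX3 without siNC replicate 2 alone.

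By FPKM, which is per length, the enzymes kept one order in both groups for the first 8 places: GPX1, PRDX5, PRDX1, PRDX6, PRDX2, SOD1, PRDX4 and PRDX3. The last places were exchanged. CAT (4.01 FPKM) stood above SOD2 (1.27 FPKM) in siSHMT2, and SOD2 (4.79 FPKM) stood above CAT (2.66 FPKM) in siNC. The exchange and the size of the ratio below depend on the lengths used, 16431 bases for SOD2 and 3579 bases for CAT. By summed reads SOD2 stood above CAT in both groups, with 1006 against 695 in siSHMT2 and 3755 against 460 in siNC. The CAT-to-SOD2 ratio, chosen after its values were seen, was 3.31, 3.60 and 2.67 in the siSHMT2 libraries, against 0.649, 0.419 and 0.606 in the siNC libraries. Neighbours in the order whose libraries overlapped were PRDX2 and SOD1 in siSHMT2, and PRDX6 with PRDX2 and PRDX4 with PRDX3 in siNC. The PRDX4 and PRDX3 ranges met in siNC through replicate 1 (31.6 FPKM for PRDX4 and 34.3 FPKM for PRDX3), and PRDX4 was the higher of the pair in the other siNC libraries.

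The summed level of the 10 enzymes was 1711 ± 177 FPKM in siSHMT2 and 1804 ± 355 FPKM in siNC (SD, n = 3 each). The difference of -93.4 FPKM was well within these spreads. After rescaling to TPM the sign changed (106 TPM, a unit whose size cannot be set beside FPKM). The sign also changed with FPKM from the read sums (13.6 FPKM) and without siNC replicate 2 (42.0 FPKM). Without siNC replicate 1 the difference was -294 FPKM. GPX1 held 37.4% of that sum in siSHMT2 and 40.3% in siNC, and PRDX5 held 23.1% in siSHMT2 and 21.4% in siNC. By FPKM the called enzymes were minor parts of it. PRDX4 held 3.65% in siSHMT2 and 2.02% in siNC, CAT 0.234% in siSHMT2 and 0.147% in siNC, and SOD2 0.0740% in siSHMT2 and 0.266% in siNC. The SOD2 share depends on its unusual length of 16431 bases. In summed reads SOD2 held 1006 in siSHMT2 and 3755 in siNC, against 3639 and 4361 for PRDX3. The 6 peroxiredoxins summed to 955 ± 56.1 FPKM in siSHMT2 and 969 ± 147 FPKM in siNC, and the dismutases to 111 ± 8.16 FPKM in siSHMT2 and 106 ± 8.86 FPKM in siNC. The sum over all 10 was spread wider in siNC, where siNC replicate 1 held 1403 FPKM and siNC replicate 2 held 2075 FPKM.

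Ratios within a library do not depend on how libraries are scaled to each other. Their absolute values depend on the gene lengths used, such as 16431 bases for SOD2 and 2019 bases for SOD1. The difference of log2 ratios between the groups does not. The mitochondrial dismutase SOD2 stood at 1.23, 1.06 and 1.16% of SOD1 in the siSHMT2 libraries, against 5.36, 4.82 and 4.09% in the siNC libraries. The siSHMT2 libraries lay below all siNC libraries by a mean of -2.04 on the log2 scale (exact two-sided permutation test, p = 0.1, the smallest possible; 0.3 after Benjamini-Hochberg adjustment over the 3 ratios). CAT stood at 0.683, 0.764 and 0.483% of GPX1 in siSHMT2, against 0.635, 0.239 and 0.337% in siNC. The CAT-to-GPX1 groups overlapped through siNC replicate 1 (difference 0.77, exact permutation p = 0.2, adjusted 0.3). The difference was 1.15 without siNC replicate 1 and 0.45 without siNC replicate 2. PRDX3 stood at 10.2, 9.48 and 9.59% of its cytosolic counterpart PRDX1 in siSHMT2, against 15.1, 6.55 and 14.0% in siNC. The PRDX3-to-PRDX1 groups overlapped (difference -0.19, exact permutation p = 0.6, adjusted 0.6), and the sign turned without siNC replicate 1 (0.03).

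Few reads were counted in processed pseudogenes of these enzymes. Of 16 pseudogene rows named after them, 14 had no read in any library. How reads matching both an enzyme and a copy were counted is not given here. Reads left out of both rows would not show in these counts. GPX1P1, a copy of GPX1 on the X chromosome, measured 3.71, 3.28 and 3.65 FPKM in siSHMT2, against 5.19, 7.52 and 5.03 FPKM in siNC, from 33 to 66 reads. It was called lower, at -0.59 (limma adjusted p = 0.0315), and lost the call in 6 of 15 alternatives: with voom (0.1495), no filter (0.116), the replicate block (0.0683) and without siSHMT2 replicates 1, 2 and 3 (0.0953, 0.111 and 0.0885). Counting may have split reads between this near-identical copy and GPX1, and the reads of the copy are few beside the 10352 to 15068 reads of GPX1. PRDX1P1 had 1 read, in siSHMT2 replicate 2.

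Several genes overlap an enzyme on the chromosome, and the sources used here do not say whether reads were counted by strand. Counting by strand would not separate HOOK2 from PRDX2, since they share a strand. The overlap of the SOD2 rows with each other, given above, is not among the genes below. WTAP, a subunit of the RNA methyltransferase complex on the opposite strand of SOD2, measured 16.5, 18.0 and 14.96 FPKM in siSHMT2, against 16.7, 15.7 and 14.8 FPKM in siNC. Its groups overlapped (estimate 0.06, limma adjusted p = 0.735), unlike those of SOD2. ACAT2, which overlaps the second SOD2 row, was at -0.09 (limma adjusted p = 0.757). MMACHC beside PRDX1 was at -0.20 (limma adjusted p = 0.353), HOOK2 over PRDX2 at 0.28 (limma adjusted p = 0.171) and AP000254.2 opposite SOD1 at -0.05 (limma adjusted p = 0.871). No overlapping row of another gene name at a mean FPKM of at least 1 was called. How many reads the overlaps took from the enzymes was not tested.

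The 10 enzymes depend on partners, which were followed in 7 lists of 93 genes. Of the 69 that were tested, 2 were called higher and 7 lower, beside 6.07% higher and 9.85% lower of all tested genes. Their median difference was 0.02, equal to that of all tested genes after rounding. The small counts of each list below are to be read against the same shares. Among the other dismutases and glutathione peroxidases, 4 of 8 were tested and none was called (median -0.15). GPX4, which guards membranes against lipid peroxides, measured 149.9, 122 and 172 FPKM in siSHMT2, against 129, 225 and 172 FPKM in siNC (limma adjusted p = 0.555). GPX8, of the endoplasmic reticulum like PRDX4, was at -0.07 (limma adjusted p = 0.610).

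Thioredoxin and its reductases recharge most peroxiredoxins, and 2 of 8 tested genes of that list were lower and none higher (median -0.15). TXNIP, the inhibitor of thioredoxin, measured 9.0, 9.57 and 8.67 FPKM in siSHMT2, against 16.8, 14.1 and 18.2 FPKM in siNC, with no overlap. TXNIP fell by 0.78 (SE 0.115, limma adjusted p = 0.00415). TXNRD2, the mitochondrial thioredoxin reductase that serves PRDX3, measured 14.4, 12.4 and 16.4 FPKM in siSHMT2, against 18.8, 39.4 and 26.7 FPKM in siNC. It fell by 0.88 (SE 0.242, limma adjusted p = 0.0466). The TXNRD2 call held in 10 of 17 alternatives; it was lost, for example, without siNC replicate 2 (-0.61, limma adjusted p = 0.0603), without siNC replicate 3 (0.105) and without siSHMT2 replicates 1, 2 and 3 (0.131, 0.148 and 0.0864).

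Glutathione and NADPH supply GPX1 and, through glutaredoxins, other thiols. All 14 genes of that list were tested, with 1 lower and none higher (median 0.03). GLRX, the cytosolic glutaredoxin, measured 6.26, 6.45 and 6.56 FPKM in siSHMT2, against 8.36, 10.3 and 8.32 FPKM in siNC, and fell by 0.43 (SE 0.107, limma adjusted p = 0.0337). The GLRX call held in 8 of 17 alternatives.

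Metal and selenium supply matters to SOD1, SOD2 and GPX1, and 1 of 8 tested genes was lower and none higher (median 0.17). SLC39A14, a carrier of manganese, zinc and iron, measured 5.49, 6.23 and 5.21 FPKM in siSHMT2, against 11.3, 10.1 and 11.3 FPKM in siNC. The groups were far apart. SLC39A14 fell by 0.84 (SE 0.102, limma adjusted p = 0.00179), and the call held in 17 of 17 alternatives.

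Of 14 genes of peroxisome import and biogenesis, 13 were tested, with 1 lower and none higher (median 0.09). The import receptor PEX5, at 0.0503 to 0.114 FPKM, was not tested, and which receptor carries CAT was not examined. PEX7, an import receptor, measured 2.66, 3.88 and 2.76 FPKM in siSHMT2, against 4.77, 4.30 and 5.51 FPKM in siNC, and fell by 0.52 (SE 0.141, limma adjusted p = 0.0433). The PEX7 call held in 7 of 16 alternatives. Among sources of superoxide and peroxide, 9 of 18 genes were tested and none was called (median -0.07). POLDIP2, a partner of NADPH oxidase, was at 0.35 (limma adjusted p = 0.0882). It was called higher in 4 of 17 alternatives, after TPM (0.0239), with FPKM from the read sums (0.0233), with voom (0.0181) and with array weights (0.0126), all limma adjusted p. CYBA, the oxidase subunit p22phox, was at -0.10 (limma adjusted p = 0.849).

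Of 13 tested regulators of antioxidant genes, 2 were called higher and 2 lower, and the other 9 were not called (median 0.01). NFE2L2 (NRF2), the main activator of antioxidant genes, measured 2.71, 3.08 and 2.63 FPKM in siSHMT2, against 6.89, 5.40 and 4.66 FPKM in siNC, with no overlap. It fell by 0.79 (SE 0.136, limma adjusted p = 0.0077). BACH1, a repressor that competes with NRF2 for the same sites, measured 3.91, 3.80 and 3.66 FPKM in siSHMT2, against 7.03, 5.94 and 6.25 FPKM in siNC, and fell by 0.63 (limma adjusted p = 0.00465).

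NFE2L1 (NRF1), a related activator anchored in the endoplasmic reticulum, measured 24.9, 28.4 and 24.9 FPKM in siSHMT2, against 15.9, 18.2 and 15.2 FPKM in siNC. NFE2L1 rose by 0.64 (SE 0.111, limma adjusted p = 0.00824). FOXO4, a member of the FOXO family of stress-responsive factors, measured 1.71, 1.89 and 2.02 FPKM in siSHMT2, against 0.965, 0.674 and 1.37 FPKM in siNC, and rose by 0.53 (limma adjusted p = 0.048). NFE2L1 and NFE2L2 held their calls in 17 of 17 and 16 of 16 alternatives, BACH1 in 16 of 17 and FOXO4 in 5 of 16.

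**Figure D4:**
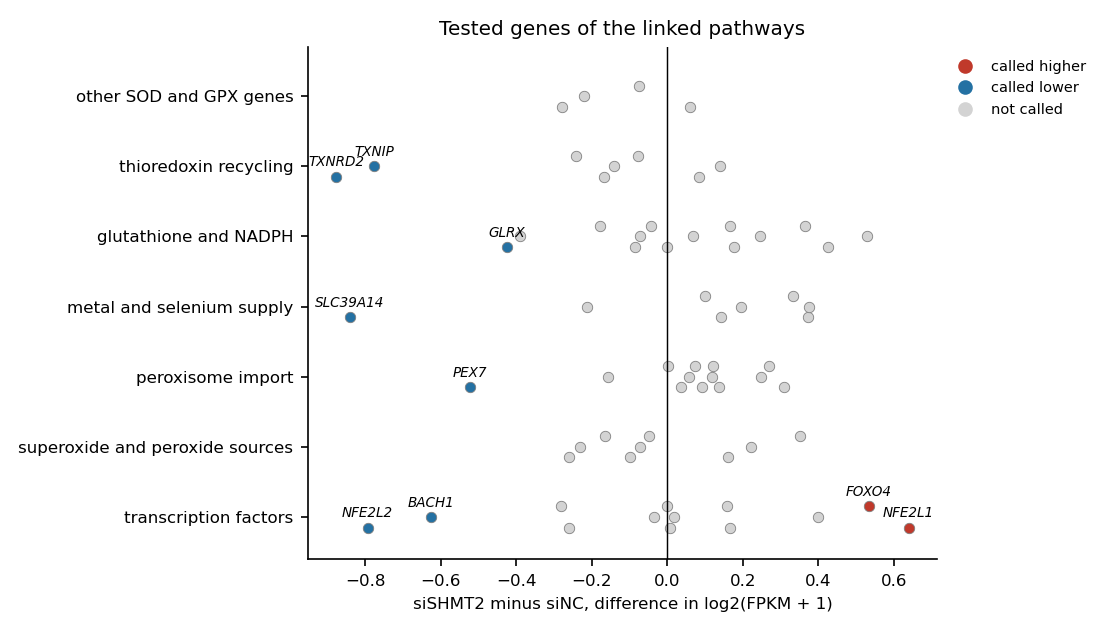
Limma estimate of siSHMT2 minus siNC on the log2(FPKM + 1) scale (horizontal axis) for each of the 69 tested partner genes, by list (rows), coloured by the call and named where called. The 7 genes called lower include TXNIP, SLC39A14 and NFE2L2, NFE2L1 and FOXO4 are the 2 called higher, and most points lie close to 0.

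For each called enzyme, the 3 other protein-coding genes with the most similar pattern over the 6 libraries were listed by Pearson correlation of log2(FPKM + 1). These values describe 6 libraries that share the group difference. For SOD2 they were CLDN11, a tight-junction protein (r = 0.999, estimate -2.73), SENP1, a SUMO protease (r = 0.998, estimate -0.76), and NUCKS1, a nuclear protein (r = 0.998, estimate -0.96). For PRDX4 they were CCDC184 (r = 0.999, estimate 0.59), LAMTOR1, a lysosomal scaffold of mTORC1 signalling (r = 0.998, estimate 0.55), and HES6, a transcription factor (r = 0.998, estimate 0.67). For CAT they were FKBP3, a prolyl isomerase (r = 0.998, estimate 0.55), SMYD2, a lysine methyltransferase (r = 0.998, estimate 0.25), and PRPS1, a phosphoribosyl pyrophosphate synthetase (r = 0.998, estimate 0.31). The limma fit called FKBP3 (adjusted p = 0.0319) and did not call SMYD2 (adjusted p = 0.136) or PRPS1 (adjusted p = 0.0952). FKBP3 lost its call in 7 of 17 alternatives: after TPM (0.0633), with no filter (0.0903), with the replicate block (0.0687), without siNC replicate 3 (0.0729) and without siSHMT2 replicates 1, 2 and 3 (0.131, 0.114 and 0.0801). SMYD2 and PRPS1 gained one with array weights (limma adjusted p = 0.0137 and 0.00889). LAMTOR1 kept its call in 13 of 17 alternatives.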

How the data were processed

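RNA of 6 LX2 libraries was measured by RNA-seq from a mRNA kit, per the labels. The authors deposited FPKM for 60623 genes. HISAT2 2.0.5, featureCounts 1.5.0-p3 and hg18 are named, per the submitters' processing notes, but the table's coordinates match GENCODE 29 (GRCh38): of 58516 shared identifiers, 79.7% had identical start and end. Deposited FPKM times gene length gave whole reads for 100% of values within 0.02; the authors' library totals were 0.957 to 1.13 times the read sums, and how they were set is not given here.

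The 10865 genes whose mean FPKM reached 1 entered 1 fit of log2(FPKM + 1) by limma 3.58.1 (R 4.3.3). Variances followed an intensity trend, and p-values were adjusted by Benjamini-Hochberg over these genes. No count model was the main test, since the unit is FPKM. Ratios had exact permutation tests. Named genes were the 10 enzymes, SHMT2, up to 4 called genes of each list with the smallest adjusted p (or the 2 most abundant where none was called), the 3 most similar genes of each called enzyme, and overlapping or pseudogene rows at a mean of at least 1. The CAT-to-SOD2 ratio was added after seeing values.

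The enzymes and gene lists were chosen with earlier results of these data known. Replicate numbers come from the titles. Alternatives covered the pseudocount, filter, scaling, biotype, moderation, library weights, voom on recovered reads, a replicate block and leaving out each library. 3′ UTRs were read from GENCODE 29 transcripts. Some sites found there are not reported here. Counting error sets a floor on precision at low levels: for CAT, the mean read count allows a coefficient of variation of 7.21%.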

Additional observations from a re-analysis of the deposited data

How the results depend on the processing

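SOD2 and PRDX4 were called in every alternative in which they were tested, 16 and 17. Enzymes called higher numbered 2 as reported. They numbered 1 with no filter, after TPM, with FPKM from the read sums, with no intensity trend, with voom and with the replicate block. The call lost was that of CAT. At a mean of 5 they also numbered 1, because CAT was not tested there. Enzymes called lower numbered 1, and 0 at a mean of 5, where SOD2 was not tested. Without each library in turn, 1 to 2 enzymes were higher and 1 to 2 lower.

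All genes called higher numbered 659 as reported, 333 with no filter, 1827 with array weights and 374 with the replicate block; leaving out a library gave 229 to 729. Those lower numbered 1070, then 603 with no filter, 618 at a mean of 5, 620 after TPM, 1976 with array weights and 696 with the replicate block; leaving out a library gave 498 to 1132. Lower genes were 61.9% of calls, but 47.5% after TPM (686 higher, 620 lower), 49.1% with FPKM from the read sums (796 higher, 767 lower) and 48.3% with voom (904 higher, 843 lower). The all-gene median was 0.02, but 0.11 after TPM and 0.10 with voom.

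Partner genes called higher numbered 2, then 1 with a pseudocount of 0.1 or 0.01, with no filter, at a mean of 5 and with the block, 4 with FPKM from the read sums and among protein-coding genes, 10 with array weights and 6 with voom; leaving out a library gave 1 to 3. Those lower numbered 7, then 4 with no filter, after TPM and with the block; leaving out a library gave 4 to 7. The PRDX3-to-PRDX1 difference was -0.57 to 0.0279 with each library left out, positive without siNC replicate 1. The causes were not tested.

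Deviations of same-numbered libraries from their group means correlated at -0.35 to 0.24, and 1 of 6 libraries matched its own number best. The labels state no pairing. With 3 libraries per group these correlations are bound to each other and cannot exclude one. Of 649 single-gene values over 39 genes, 577 kept their side of the threshold, 65 lost a call, 7 gained one and 0 turned sign with a call.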
